A study of Mus musculus with 9 samples.

Results

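Interleukins are the secreted messengers of the immune system, and 69 of the 44806 genes in the count table were interleukin or interleukin receptor genes. They were the protein-coding genes whose symbol begins with Il and a digit, less 12 such genes that were set aside by name (Il1a, Il1b, Il1rn, Il1r1, Il1r2, Il18, Il33, Il2ra, Il7r, Il17a, Il23r and Il4i1). Of the 69, 34 encode ligands or the soluble binding protein Il18bp, and 35 encode receptor subunits or the soluble binding protein Il22ra2. RNA came from mouse tumours grown from MB49, a bladder cancer cell line, and every group shares a genotype of HER2 overexpression. The groups were Lipo-TriTE, Lipo-BiTE and PBS, named after what the mice received, with 3 libraries each. Bispecific T cell engagers, commonly shortened to BiTE, link a T cell to a tumour cell, and the labels spell out neither agent's targets. Per the design text all groups were collected at the endpoint, and strain, age, dose and schedule are not given in the labels. The labels do not say what Lipo stands for, and no group received that component without an engager, so the parts of both components cannot be told apart. Whether each library is a separate animal is not stated in the labels. The p-values therefore cover the spread between libraries, some of which may be technical. Sources differ on the material, because the series' design text names T cells sorted by CD3 whereas the labels describe frozen tumour tissue.

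Most interleukins act on receptors built of several chains, many of them shared between families. The common gamma chain, encoded by Il2rg, pairs with Il2rb for IL-2 and IL-15, with Il4ra for IL-4, with Il9r for IL-9 and with Il21r for IL-21, and these receptors support lymphocyte growth and survival. The IL-6 and IL-12 families share the chains gp130 (Il6st) and Il12rb1, and IL-12 and IL-27 are known for steering T cells towards interferon gamma production. Gamma chain, IL-6, IL-12 and IL-10 receptors signal through JAK kinases and STAT factors, whereas receptors of the IL-1, IL-18, IL-33 and IL-36 families signal through MyD88. In tumours, interleukins come from T cells and from macrophages, neutrophils, fibroblasts and the tumour cells themselves.

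Libraries held 13152783 to 20273548 counts, and the unit used here is CPM, counts on a common library total after TMM scaling, which evens out composition between libraries. In that unit 3 counts equalled 0.146 to 0.237 CPM. Summed over all T cell markers, 10 of 10 genes detected in each group, the level was 981 to 1627 CPM in Lipo-TriTE libraries, 217 to 421 CPM in Lipo-BiTE libraries and 46.0 to 57.5 CPM in PBS libraries. The 10 B cell markers summed to 507 to 1424 CPM in Lipo-TriTE libraries, 15.4 to 33.9 CPM in Lipo-BiTE libraries and 9.39 to 12.4 CPM in PBS libraries. Macrophage and monocyte markers, 9 of 10 in the table, summed to 796 to 946 CPM in Lipo-TriTE libraries, 958 to 2095 CPM in Lipo-BiTE libraries and 247 to 277 CPM in PBS libraries. The 8 neutrophil markers summed to 1397 to 4533 CPM in Lipo-TriTE libraries, 1189.5 to 6663 CPM in Lipo-BiTE libraries and 148 to 322 CPM in PBS libraries. Fibroblast markers, 8 of 8, summed to 936 to 1458 CPM in Lipo-TriTE libraries, 1370.1 to 2312 CPM in Lipo-BiTE libraries and 2079 to 3171 CPM in PBS libraries, and epithelial markers, 7 of 8 in the table, to 397 to 678 CPM in Lipo-TriTE libraries, 612 to 841 CPM in Lipo-BiTE libraries and 902 to 975 CPM in PBS libraries. Fibroblast and epithelial markers were thus present in every library, which is what frozen tumour tissue holds and goes against material sorted for CD3. The epithelial marker Krt7 had no count in any PBS library. Lipo-BiTE 1 had the highest macrophage and neutrophil sums of all libraries, and Lipo-TriTE 1 had the highest T and B cell sums. In such bulk tissue, fewer cells of a type and less RNA per cell cannot be told apart. The part of these cell type markers in the interleukin results was not tested beyond the ratios given.

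Counts allowed a test of 42 of the 69 genes, 29 receptor subunits and 13 from the group of ligands and Il18bp, and the other 27 had at most 34 counts in any library. A gene was called when the edgeR quasi-likelihood test over all 16596 tested genes gave an adjusted p under 0.05. In Lipo-TriTE against PBS, 25 of the 42 rose and 4 fell, while 18.9% of all tested genes were called higher and 14.8% lower. The comparison of Lipo-BiTE with PBS gave 18 that rose and 0 that fell by edgeR, against 13.8% and 3.22% of all tested genes, and the count of falls was 3 at an unadjusted p under 0.05 and 0 by DESeq2. In Lipo-TriTE against Lipo-BiTE, 6 rose and 4 fell, against 4.88% and 5.21% of all tested genes. The same shares of all tested genes apply to the counts per family and per marker list below. The median log2 fold change of the 42 was 1.53 in Lipo-TriTE against PBS, where the median of all tested genes was 0.00. It was 1.08 in Lipo-BiTE against PBS, where all genes had a median of -0.02. The plot of transcripts per library and the plot of fold changes show these genes by family.

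**Figure D1:**
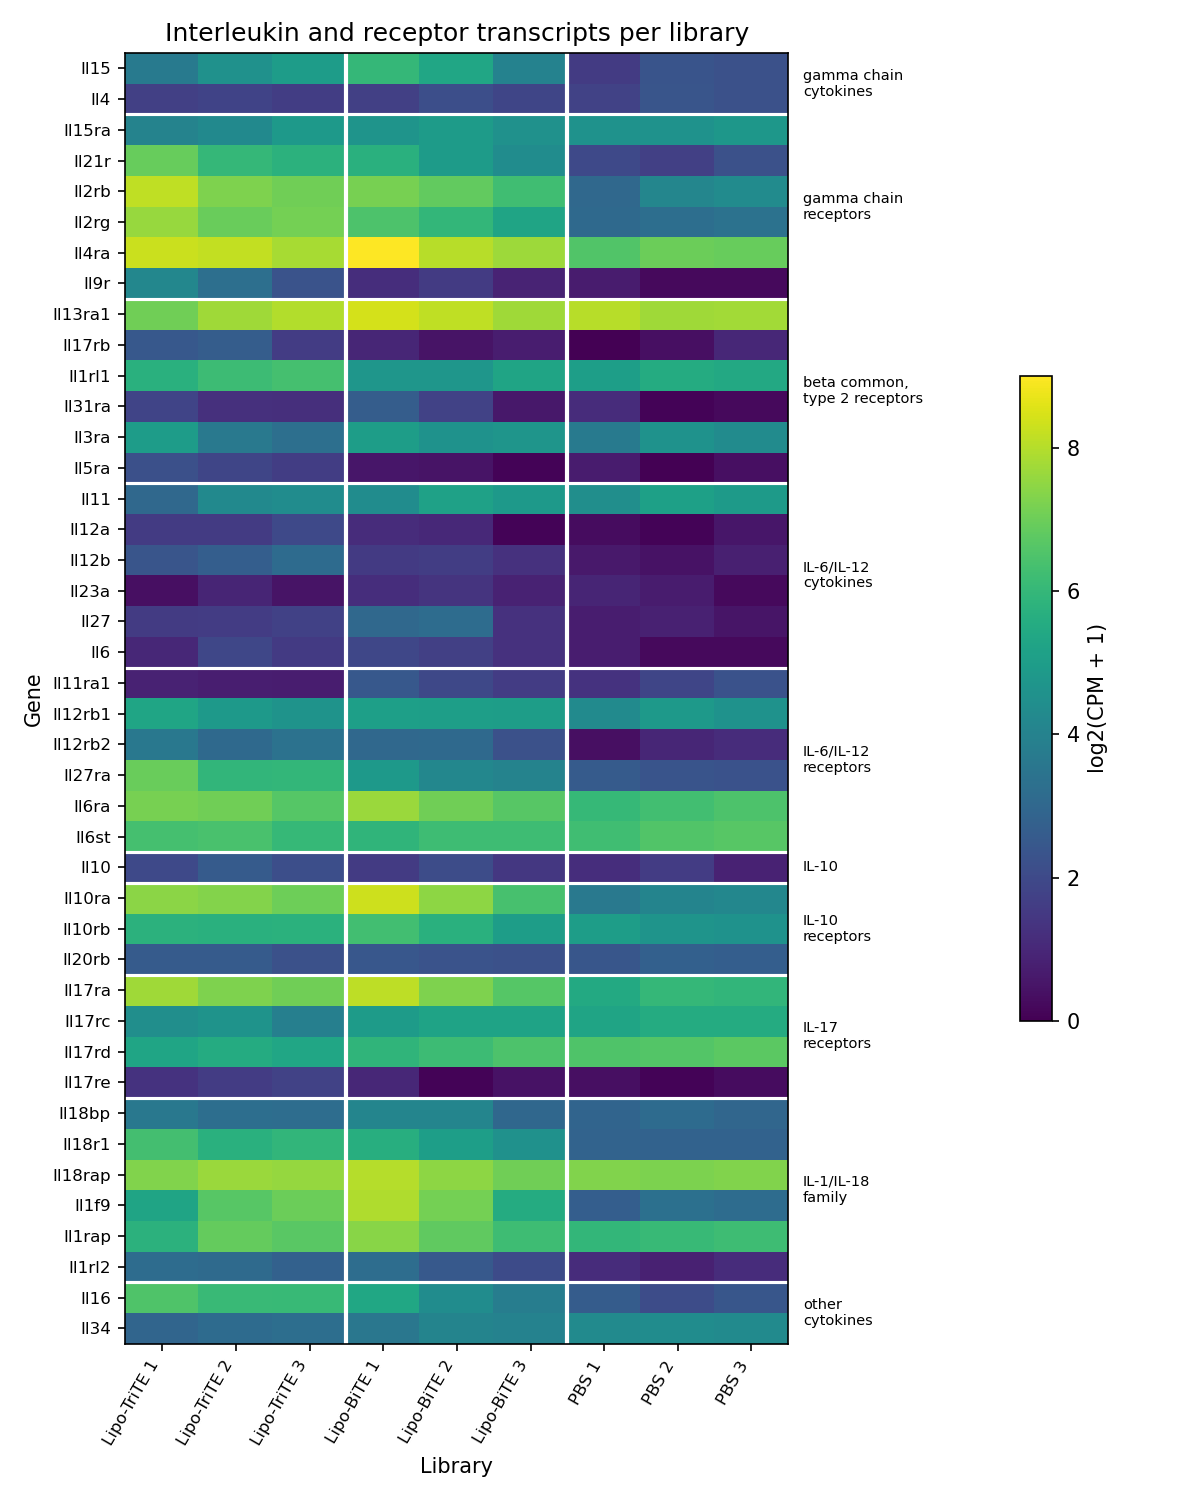
Level of each of the 42 tested genes (rows, grouped by family) in each of the 9 libraries (columns, Lipo-TriTE, Lipo-BiTE, then PBS), as log2(CPM + 1). Il2rg, Il2rb, Il21r and Il10ra are darker in all 3 PBS libraries than in both treated groups, whereas Il13ra1, Il6st and Il18rap are bright in every library.

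**Figure D2:**
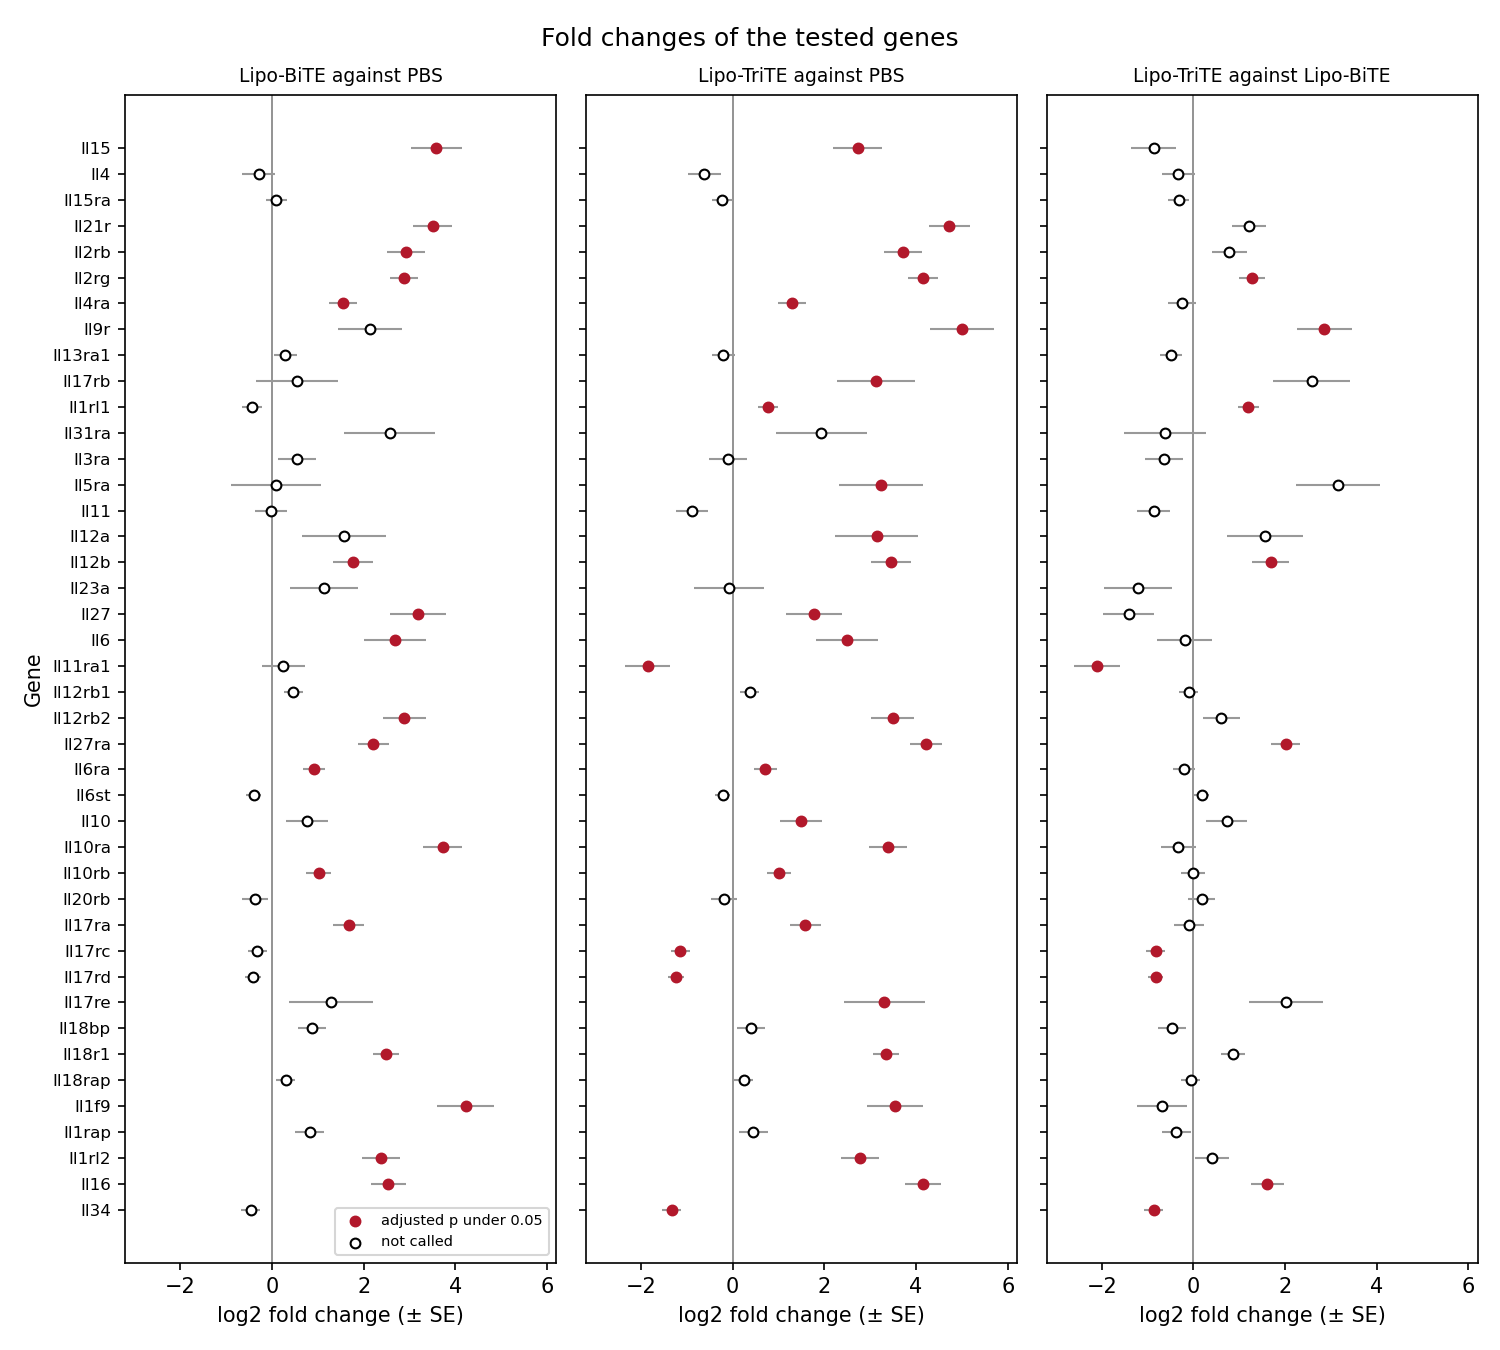
Log2 fold change of the 42 tested genes (rows) in each of the 3 comparisons (panels), with bars for the SE; filled points have an adjusted p under 0.05. Most filled points lie right of 0 in both comparisons with PBS, and Lipo-TriTE against Lipo-BiTE has 6 filled points right of 0 and 4 left of it.

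Some libraries held the same rank within their group over many of these genes. In the 42 genes, Lipo-BiTE 1 had the highest value of its group in 27 and Lipo-BiTE 3 the lowest in 32, that is 64.3% and 76.2%, while over all tested genes these libraries held that place in 41.2% and 38.8%. Summed over the 69 genes, the level was 2541, 2354 and 2207 CPM in Lipo-TriTE tumours, 3235, 2208 and 1569 CPM in Lipo-BiTE tumours and 1121, 1219.8 and 1252 CPM in PBS tumours. The treated groups overlapped in this sum, and both stood above PBS. Of the 42 genes, 27 lay above PBS in all 3 Lipo-TriTE libraries and 5 below, against 26% and 23.4% of all tested genes, or 49.5% in either direction. Likewise 21 lay above PBS in all 3 Lipo-BiTE libraries and 4 below, against 22.7% and 19.4%, or 42.1% in either direction.

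Receptor subunits of the gamma chain family had the highest median log2 fold change of the receptor families in Lipo-TriTE against PBS, 3.93, with 5 of 6 called higher in Lipo-TriTE against PBS, 4 of 6 in Lipo-BiTE against PBS and 2 of 6 in Lipo-TriTE against Lipo-BiTE. Il2rg, the common gamma chain itself, had 193, 123 and 138 CPM in Lipo-TriTE tumours, 88.6, 61.9 and 37.2 CPM in Lipo-BiTE tumours and 7.42, 8.62 and 9.56 CPM in PBS tumours. The 3 groups did not overlap: every Lipo-TriTE library lay above every Lipo-BiTE library, and these above PBS. Il2rg was 17.7-fold higher (log2 4.15 ± 0.32, SE, adjusted p = 3e-05) in Lipo-TriTE against PBS, 7.31-fold higher (log2 2.87 ± 0.31, SE, adjusted p = 0.00076) in Lipo-BiTE against PBS and 2.42-fold higher (log2 1.28 ± 0.28, SE, adjusted p = 0.021) in Lipo-TriTE against Lipo-BiTE. Il2rg lost its call in Lipo-TriTE against Lipo-BiTE without Lipo-BiTE 2 or Lipo-TriTE 3 (adjusted p from 0.053 to 0.089). Il2rb, the beta chain that Il2rg joins to bind IL-2 and IL-15, had 284, 154 and 133 CPM in Lipo-TriTE tumours, 143, 113 and 75.4 CPM in Lipo-BiTE tumours and 7.35, 16.6 and 19.5 CPM in PBS tumours. Treated libraries all stood above PBS, and Lipo-TriTE 3 lay below Lipo-BiTE 1. Il2rb was 13.1-fold higher (log2 3.71 ± 0.42, SE, adjusted p = 0.00018) in Lipo-TriTE against PBS and 7.60-fold higher (log2 2.93 ± 0.41, SE, adjusted p = 0.0011) in Lipo-BiTE against PBS, and the treated groups differed by log2 0.79 ± 0.38, SE, adjusted p = 0.22.

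Il21r, the receptor for the T helper cell cytokine IL-21, had 120.0, 62.5 and 54.6 CPM in Lipo-TriTE tumours, 51.8, 30.2 and 19.9 CPM in Lipo-BiTE tumours and 2.97, 2.30 and 3.68 CPM in PBS tumours. The groups did not overlap, although Lipo-TriTE 3 stood close to Lipo-BiTE 1. Il21r was 26.4-fold higher (log2 4.72 ± 0.45, SE, adjusted p = 7.2e-05) in Lipo-TriTE against PBS and 11.3-fold higher (log2 3.50 ± 0.43, SE, adjusted p = 0.00077) in Lipo-BiTE against PBS. Lipo-TriTE against Lipo-BiTE did not pass the test for Il21r (log2 1.22 ± 0.37, SE, adjusted p = 0.066). It passed with total counts (adjusted p = 0.03), with no filter (8.8e-07), with DESeq2 (0.012) and without Lipo-BiTE 1 (0.018). With no filter the log2 fold change of Il21r was 1.24, so the fold hardly moved. Il9r, the receptor for IL-9, had 17.2, 8.69 and 3.89 CPM in Lipo-TriTE tumours, 1.26, 1.96 and 0.873 CPM in Lipo-BiTE tumours and 0.594, 0.177 and 0.178 CPM in PBS tumours. All Lipo-TriTE libraries were above all Lipo-BiTE libraries, with Lipo-TriTE 1 the highest. Il9r was 31.9-fold higher (log2 5.00 ± 0.69, SE, adjusted p = 0.00046) in Lipo-TriTE against PBS and 7.27-fold higher (log2 2.86 ± 0.60, SE, adjusted p = 0.016) in Lipo-TriTE against Lipo-BiTE, and Lipo-BiTE against PBS missed the threshold (log2 2.13 ± 0.71, SE, adjusted p = 0.062). Il9r in Lipo-BiTE against PBS passed with no filter (adjusted p = 0.0028), with DESeq2 (0.015), without Lipo-BiTE 3 (0.047), without Lipo-TriTE 1 (0.044) and without Lipo-TriTE 3 (0.038). The fold of Il9r in Lipo-TriTE against PBS became 53.0 without PBS 1 and 20.2 without Lipo-TriTE 1. Il9r lost its call in Lipo-TriTE against Lipo-BiTE without Lipo-BiTE 2 or Lipo-TriTE 1 (adjusted p from 0.05 to 0.051). The fold of Il9r in Lipo-TriTE against Lipo-BiTE became 4.67 without Lipo-TriTE 1.

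Il4ra, which binds IL-4 and pairs with the gamma chain or with Il13ra1, had 308, 293 and 227 CPM in Lipo-TriTE tumours, 514, 266 and 204 CPM in Lipo-BiTE tumours and 92.5, 126 and 119 CPM in PBS tumours. Both treated groups lay above PBS and overlapped each other. Il4ra was 2.45-fold higher (log2 1.29 ± 0.30, SE, adjusted p = 0.0086) in Lipo-TriTE against PBS and 2.91-fold higher (log2 1.54 ± 0.31, SE, adjusted p = 0.0065) in Lipo-BiTE against PBS. Il15ra, which presents IL-15 to neighbouring cells, was the family member that passed no test, with 15.2, 18.5 and 27.9 CPM in Lipo-TriTE tumours, 24.4, 29.9 and 22.5 CPM in Lipo-BiTE tumours and 23.1, 23.0 and 26.0 CPM in PBS tumours. Its log2 fold change was -0.23 ± 0.23 in Lipo-TriTE against PBS and 0.09 ± 0.23 in Lipo-BiTE against PBS (SE, adjusted p = 0.47 and 0.82). Per transcript length, Il2rb and Il2rg were the most abundant of the 69 genes in Lipo-TriTE tumours, at 68.4 and 63.5 RPKM, the CPM per kilobase of transcript, against 39.7 and 26.2 RPKM in Lipo-BiTE tumours and 5.20 and 3.58 RPKM in PBS tumours. In PBS tumours the most abundant was Il13ra1, at 61.6 RPKM.

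**Figure D3:**
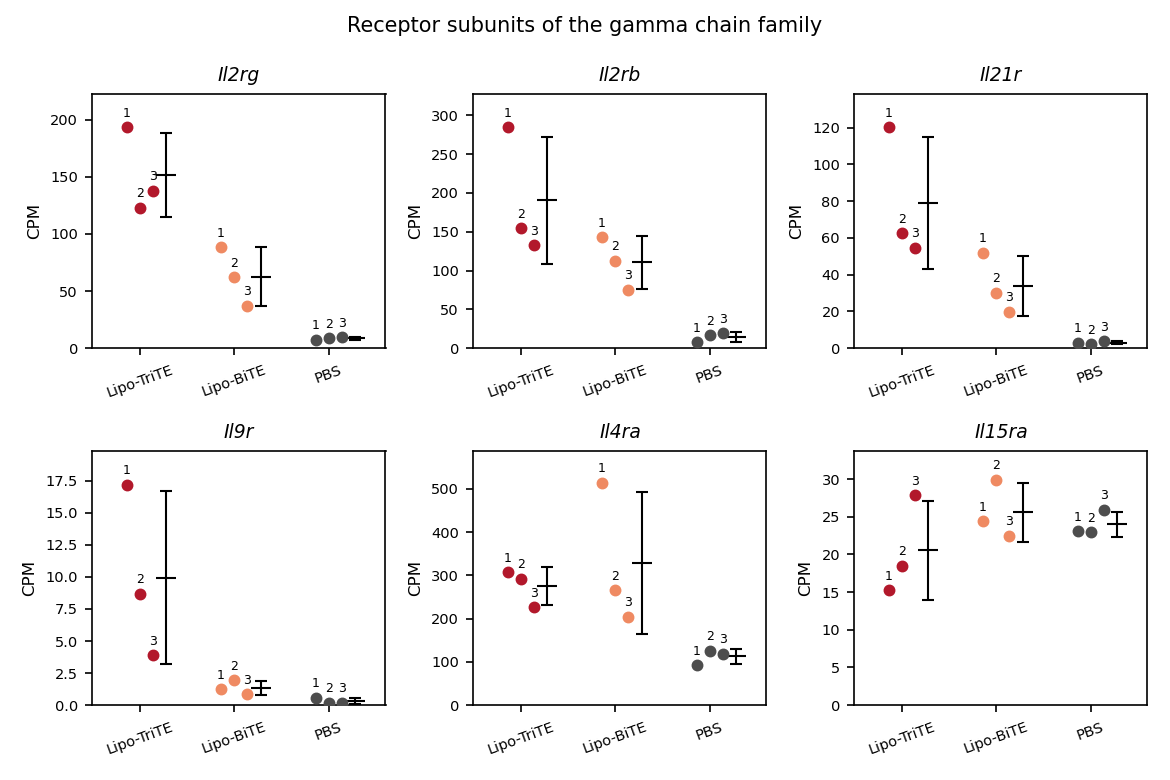
CPM of 6 gamma chain family receptor subunits in each library (points, numbered by replicate) with the mean and SD beside them, for Lipo-TriTE, Lipo-BiTE and PBS. Il2rg, Il21r and Il9r step down from Lipo-TriTE to Lipo-BiTE to PBS with no overlap, Il2rb and Il4ra overlap between the treated groups, and Il15ra overlaps in all groups.

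The sequences upstream of the 3 gamma chain family receptor genes whose groups did not overlap are shown with that of Il1f9, the ligand with the largest rise in Lipo-BiTE against PBS among the 42 genes. Each is the 250 bases before the gene's start, from RefSeq for the GRCm38.p6 assembly and read 5′ to 3′ on the gene's strand, whereas the count table uses gene models of the strain C57BL/6NJ. Capitals mark matches to the letters TGTGGT, bound by RUNX factors, or TTCNNNGAA, bound by STAT factors, on either strand. The sequences lie at chrX:101268256-101268505 (minus strand) for Il2rg, chr7:125603179-125603428 (plus) for Il21r, chr11:32200280-32200529 (minus) for Il9r and chr2:24186226-24186475 (plus) for Il1f9.
Il2rg: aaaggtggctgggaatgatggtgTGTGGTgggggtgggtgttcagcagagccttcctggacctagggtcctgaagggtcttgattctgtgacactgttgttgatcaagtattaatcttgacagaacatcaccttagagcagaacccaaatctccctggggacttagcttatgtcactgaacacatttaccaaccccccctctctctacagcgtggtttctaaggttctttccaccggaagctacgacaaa
Il21r: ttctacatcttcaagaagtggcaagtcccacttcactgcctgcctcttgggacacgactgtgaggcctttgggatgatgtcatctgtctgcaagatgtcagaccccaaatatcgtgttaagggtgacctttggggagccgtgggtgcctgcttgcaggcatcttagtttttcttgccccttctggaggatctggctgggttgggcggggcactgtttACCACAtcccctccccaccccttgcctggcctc
Il9r: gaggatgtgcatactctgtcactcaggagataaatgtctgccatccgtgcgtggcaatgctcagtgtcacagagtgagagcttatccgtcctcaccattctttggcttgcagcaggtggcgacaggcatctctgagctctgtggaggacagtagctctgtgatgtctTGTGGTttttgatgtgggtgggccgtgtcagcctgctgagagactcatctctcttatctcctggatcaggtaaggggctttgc
Il1f9: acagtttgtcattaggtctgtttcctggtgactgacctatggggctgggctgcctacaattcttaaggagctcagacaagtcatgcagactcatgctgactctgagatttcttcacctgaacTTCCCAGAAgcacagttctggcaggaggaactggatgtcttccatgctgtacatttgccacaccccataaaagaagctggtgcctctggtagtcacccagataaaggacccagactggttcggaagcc
The match lies 227 to 222 bases before the start in Il2rg, 33 to 28 in Il21r, 83 to 78 in Il9r and 128 to 120 in Il1f9. Among the 69 genes 52 matched the RefSeq table, with 63 promoters. The RUNX letters were found in 13 of these (20.6%) and in 14% of all 32536 promoters, and the STAT letters in 6 (9.52%) and 7.04%. The letters TGANTCA, bound by AP-1, were found in 11 (17.5%) and 6.73%, and the interferon-stimulated response element in 2 (3.17%) and 2.98%. A match is a description of these letters and not evidence of binding.

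T cell markers moved with these receptors, so levels were also set against the summed T cell marker level of the same library. Il2rg was 12.4% ± 0.483 in Lipo-TriTE tumours, 19.7% ± 2.21 in Lipo-BiTE tumours and 16.3% ± 1.46 in PBS tumours of that sum (SD, n = 3 each). The order of the groups therefore differed from that of the CPM, with Lipo-TriTE lowest. Il2rb was 15.2% ± 2.61 in Lipo-TriTE tumours, 35.6% ± 2.07 in Lipo-BiTE tumours and 27.1% ± 10.4 in PBS tumours, and the 3 Lipo-TriTE libraries lay below every Lipo-BiTE library. Il21r was 6.27% ± 1.16 in Lipo-TriTE tumours, 10.5% ± 1.62 in Lipo-BiTE tumours and 5.78% ± 1.55 in PBS tumours. Il18r1, an IL-18 receptor chain, was 5.20% ± 0.399 in Lipo-TriTE tumours, 11.0% ± 0.735 in Lipo-BiTE tumours and 12.0% ± 1.69 in PBS tumours, again with every Lipo-TriTE library below every Lipo-BiTE library. For Il27ra, a receptor of the IL-12 family, the values were 6.40% ± 0.943 in Lipo-TriTE tumours, 6.46% ± 0.712 in Lipo-BiTE tumours and 8.42% ± 2.20 in PBS tumours. Against summed macrophage and monocyte markers Il2rg was 17.3% ± 6.07 in Lipo-TriTE, 4.81% ± 1.31 in Lipo-BiTE and 3.33% ± 0.592 in PBS tumours. On that scale Lipo-TriTE was highest, so the order depended on the marker list. These percentages carry no test, and other cell types also express these receptors.

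**Figure D4:**
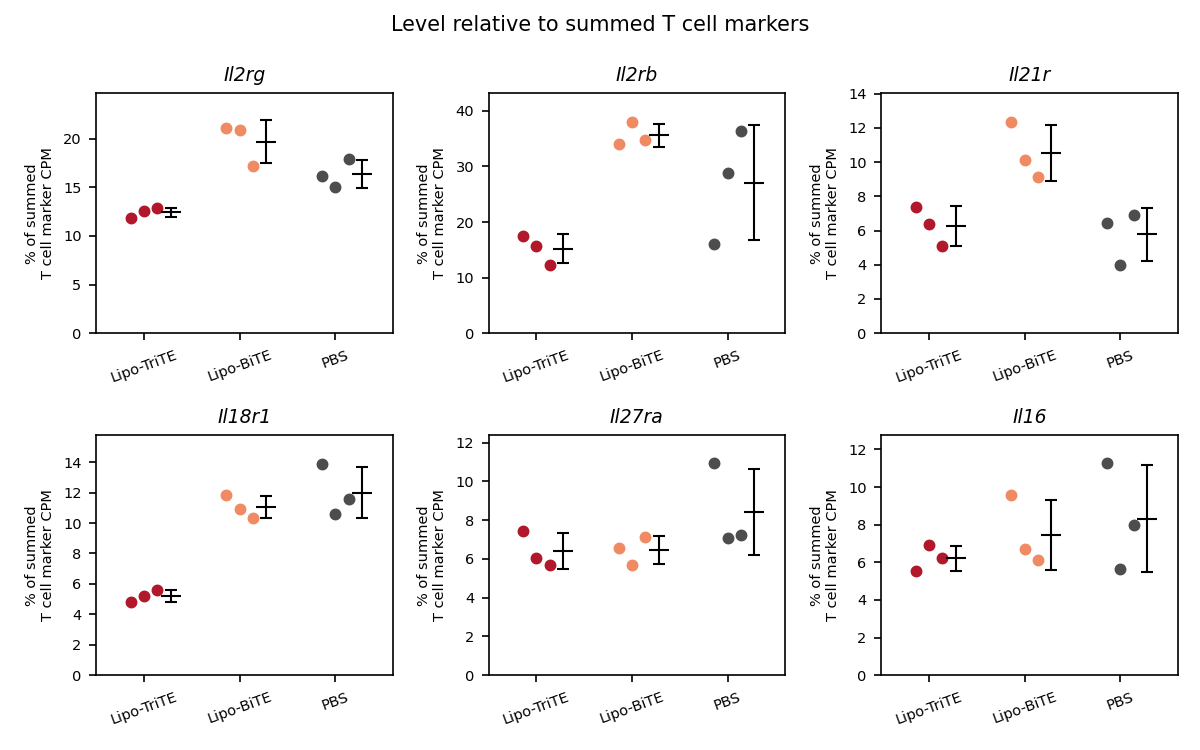
CPM of 6 genes as a percentage of the summed CPM of 10 T cell markers in the same library (points), with the mean and SD, for Lipo-TriTE, Lipo-BiTE and PBS. Il2rg and Il2rb stand lower in Lipo-TriTE than in Lipo-BiTE on this scale, the reverse of their order in CPM, while the groups overlap for Il27ra and Il16.

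Of the cytokines that use the gamma chain, 2 of 6 could be tested and 1 was called. Il15, which sustains CD8 T cells and natural killer cells, had 11.7, 22.7 and 30.5 CPM in Lipo-TriTE tumours, 63.3, 39.2 and 15.1 CPM in Lipo-BiTE tumours and 1.93, 4.07 and 3.68 CPM in PBS tumours. All treated libraries lay above all PBS libraries, and the treated groups overlapped, with Lipo-BiTE 1 the highest. Il15 was 6.60-fold higher (log2 2.72 ± 0.54, SE, adjusted p = 0.0037) in Lipo-TriTE against PBS and 12.0-fold higher (log2 3.59 ± 0.55, SE, adjusted p = 0.0017) in Lipo-BiTE against PBS, with log2 -0.86 ± 0.49, SE, adjusted p = 0.3 between the treated groups. Within Lipo-TriTE tumours the library with the most T cell markers, Lipo-TriTE 1, had the least Il15. In the other groups the library with the most T cell markers, Lipo-BiTE 1 or PBS 2, had the most Il15. Summed neutrophil markers ranked the libraries as Il15 did within Lipo-TriTE and within Lipo-BiTE. Among PBS libraries PBS 3 had the highest neutrophil sum and PBS 2 the most Il15. The part of these cells in Il15 was not tested. Il4, the type 2 T helper cytokine, had 2.23, 2.48 and 2.07 CPM in Lipo-TriTE tumours, 2.29, 3.54 and 2.69 CPM in Lipo-BiTE tumours and 2.45, 4.25 and 3.74 CPM in PBS tumours. Its groups overlapped and no comparison passed the test, with a log2 fold change of -0.62 ± 0.36 in Lipo-TriTE against PBS and -0.30 ± 0.36 in Lipo-BiTE against PBS (SE, adjusted p = 0.21 and 0.6).

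The other gamma chain cytokines were near the limit of detection and were not tested. Il21, made mainly by follicular and other helper T cells, had 34, 13 and 4 counts in Lipo-TriTE libraries, 3, 2 and 2 in Lipo-BiTE libraries and 0, 0 and 0 in PBS libraries. With the PBS group set to a floor of 3 counts, the ratio of Il21 to PBS was 15.5 in Lipo-TriTE and 2.78 in Lipo-BiTE. The treated counts were taken as they stood, so these ratios are no lower limits, and Lipo-TriTE 1 held most of the counts. Il2, the T cell growth factor, had 8, 25 and 6 counts in Lipo-TriTE libraries, 1, 4 and 3 in Lipo-BiTE libraries and 4, 0 and 0 in PBS libraries. Il7, a survival factor made mainly by stromal cells, had 1, 28 and 19 counts in Lipo-TriTE libraries, 4, 0 and 1 in Lipo-BiTE libraries and 1, 8 and 8 in PBS libraries, and its level in Lipo-TriTE libraries spanned 0.0486 to 1.78 CPM. The gene overlaps Gm16685 on the opposite strand, which held 62 counts over all libraries against 70 for Il7. Strand use in counting is not stated, so the counts of Il7 are uncertain. Il9 had at most 2 counts in any library. Counting intervals cover counting error only, and floors only that of the group without counts, since reads without molecular identifiers are not independent molecules.

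Receptor subunits for the type 2 and beta common cytokines were called in 3 of 6 tested genes in Lipo-TriTE against PBS and in 0 of 6 in Lipo-BiTE against PBS by edgeR. At an unadjusted p under 0.05 the Lipo-BiTE count was 1, and by DESeq2 it was 1, Il31ra. Il1rl1, the receptor for the alarmin IL-33 on type 2 lymphocytes, regulatory T cells and mast cells, had 51.8, 71.8 and 79.8 CPM in Lipo-TriTE tumours, 25.6, 25.4 and 37.2 CPM in Lipo-BiTE tumours and 32.1, 45.6 and 42.2 CPM in PBS tumours. Every Lipo-TriTE library lay above every other library, while Lipo-BiTE and PBS overlapped. Il1rl1 was 1.69-fold higher (log2 0.76 ± 0.22, SE, adjusted p = 0.021) in Lipo-TriTE against PBS and 2.30-fold higher (log2 1.20 ± 0.22, SE, adjusted p = 0.0099) in Lipo-TriTE against Lipo-BiTE, while Lipo-BiTE against PBS gave log2 -0.44 ± 0.22, SE, adjusted p = 0.19. Il1rl1 lost its call in Lipo-TriTE against PBS without PBS 1, PBS 3, Lipo-TriTE 2 or Lipo-TriTE 3 (adjusted p from 0.051 to 0.077). Il1rl1 lost its call in Lipo-TriTE against Lipo-BiTE without Lipo-BiTE 2 (adjusted p = 0.059). Mast cell markers, 8 of 8 in the table, summed to 742 to 1151 CPM in Lipo-TriTE libraries, 427 to 1090.4 CPM in Lipo-BiTE libraries and 195 to 229 CPM in PBS libraries, and their part in Il1rl1 was not tested. Of 7 tested mast cell markers, 6 were called higher and 1 lower in Lipo-TriTE against PBS, 2 higher in Lipo-BiTE against PBS and 4 higher in Lipo-TriTE against Lipo-BiTE, with a median log2 fold change of 2.74, 0.24 and 2.24 in these comparisons. Among the mast cell markers Mcpt4 had no count in any Lipo-BiTE library.

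Il17rb, the chain that binds IL-25, had 4.61, 5.27 and 2.01 CPM in Lipo-TriTE tumours, 0.947, 0.376 and 0.654 CPM in Lipo-BiTE tumours and 0, 0.295 and 1.01 CPM in PBS tumours. Lipo-TriTE values stood above all others, and Lipo-BiTE overlapped PBS. Il17rb was 8.73-fold higher (log2 3.13 ± 0.86, SE, adjusted p = 0.017) in Lipo-TriTE against PBS. Il17rb lost its call in Lipo-TriTE against PBS without PBS 2 or Lipo-TriTE 2 (adjusted p from 0.05 to 0.058). The fold of Il17rb in Lipo-TriTE against PBS became 24.0 without PBS 3. Il5ra, the receptor of the eosinophil growth factor IL-5, had 3.54, 2.73 and 2.07 CPM in Lipo-TriTE tumours, 0.473, 0.376 and 0.0727 CPM in Lipo-BiTE tumours and 0.594, 0 and 0.297 CPM in PBS tumours, again with every Lipo-TriTE library on top. Il5ra was 9.46-fold higher (log2 3.24 ± 0.91, SE, adjusted p = 0.019) in Lipo-TriTE against PBS. Il5ra lost its call in Lipo-TriTE against PBS without PBS 3 or Lipo-TriTE 1 (adjusted p = 0.058). The fold of Il5ra in Lipo-TriTE against PBS became 17.7 without PBS 1 and 6.28 without PBS 2. For neither gene did Lipo-TriTE against Lipo-BiTE pass, with log2 2.58 ± 0.84, SE, adjusted p = 0.076 for Il17rb and log2 3.16 ± 0.92, SE, adjusted p = 0.052 for Il5ra. This comparison of Il17rb passed with no filter (adjusted p = 0.003), with DESeq2 (0.011), in a fit of the 2 groups alone (0.024) and without PBS 1 (0.022). That of Il5ra passed with total counts (adjusted p = 0.041), with no filter (0.0032), with a filter of 1 CPM in 3 libraries (0.044), with DESeq2 (0.003), in a fit of the 2 groups alone (0.02), without PBS 1 (0.032) and without PBS 2 (0.024).

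Il13ra1, the IL-13 receptor chain present on most tissue cells, had 132, 212 and 252 CPM in Lipo-TriTE tumours, 345, 284 and 209 CPM in Lipo-BiTE tumours and 263, 209.7 and 213 CPM in PBS tumours. Its groups overlapped and it passed no test, with log2 -0.20 ± 0.24, SE, adjusted p = 0.56 in Lipo-TriTE against PBS. Il3ra, the alpha chain for IL-3, had 30.6, 11.4 and 8.88 CPM in Lipo-TriTE tumours, 31.3, 23.4 and 24.7 CPM in Lipo-BiTE tumours and 12.2, 23.0 and 19.4 CPM in PBS tumours and was not called. Il3ra in Lipo-TriTE against Lipo-BiTE passed without Lipo-TriTE 1 (adjusted p = 0.025). Lipo-TriTE 1 had about the level of the Lipo-BiTE libraries, above the other Lipo-TriTE libraries. Il31ra, a receptor chain for the itch-related cytokine IL-31, had 2.57, 1.40 and 1.30 CPM in Lipo-TriTE tumours, 5.29, 2.41 and 0.509 CPM in Lipo-BiTE tumours and 1.19, 0.0590 and 0.178 CPM in PBS tumours, with adjusted p = 0.16 in Lipo-TriTE against PBS and 0.1 in Lipo-BiTE against PBS. Il31ra in Lipo-TriTE against PBS passed with no filter (adjusted p = 0.035) and without PBS 1 (0.024). Il31ra in Lipo-BiTE against PBS passed with no filter (adjusted p = 0.0053), with DESeq2 (0.039), without PBS 1 (0.027) and without Lipo-BiTE 3 (0.037). The matching ligands were too low to test. Il13 had 11, 10 and 5 counts in Lipo-TriTE libraries, 6, 0 and 9 in Lipo-BiTE libraries and 0, 0 and 1 in PBS libraries, which put Lipo-TriTE over PBS at a ratio of 23.7 (exact 95% interval 3.90 to 973) and Lipo-BiTE over PBS at 17.8 (2.75 to 751). Il5, Il3, Il25 and Il31 had at most 12 counts in any library.

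Cytokines of the IL-6 and IL-12 families were all testable, and 4 of 6 rose in Lipo-TriTE against PBS and 3 of 6 in Lipo-BiTE against PBS. Il12b, the p40 chain shared by IL-12 and IL-23, had 4.22, 5.46 and 7.97 CPM in Lipo-TriTE tumours, 1.89, 2.11 and 1.45 CPM in Lipo-BiTE tumours and 0.520, 0.354 and 0.713 CPM in PBS tumours. The 3 groups did not overlap. Il12b was 11.0-fold higher (log2 3.45 ± 0.44, SE, adjusted p = 0.00029) in Lipo-TriTE against PBS, 3.40-fold higher (log2 1.76 ± 0.44, SE, adjusted p = 0.02) in Lipo-BiTE against PBS and 3.22-fold higher (log2 1.69 ± 0.40, SE, adjusted p = 0.025) in Lipo-TriTE against Lipo-BiTE. Il12b lost its call in Lipo-BiTE against PBS without PBS 1, PBS 2, Lipo-BiTE 1 or Lipo-BiTE 2 (adjusted p from 0.056 to 0.084). Il12b lost its call in Lipo-TriTE against Lipo-BiTE without Lipo-BiTE 1, Lipo-BiTE 2, Lipo-BiTE 3, Lipo-TriTE 2 or Lipo-TriTE 3 (adjusted p from 0.052 to 0.1). Il12a, the p35 chain that completes IL-12, had 1.94, 1.97 and 2.98 CPM in Lipo-TriTE tumours, 1.18, 1.05 and 0.0727 CPM in Lipo-BiTE tumours and 0.223, 0.0590 and 0.475 CPM in PBS tumours. Lipo-TriTE libraries lay above the rest, and Lipo-BiTE 3 lay among the PBS values. Il12a was 8.81-fold higher (log2 3.14 ± 0.91, SE, adjusted p = 0.021) in Lipo-TriTE against PBS, while Lipo-BiTE against PBS gave log2 1.57 ± 0.92, SE, adjusted p = 0.26. Il12a lost its call in Lipo-TriTE against PBS without PBS 2 or Lipo-TriTE 3 (adjusted p from 0.063 to 0.067). The fold of Il12a in Lipo-TriTE against PBS became 16.1 without PBS 3.

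Il23a, the p19 chain that completes IL-23, had 0.291, 0.888 and 0.389 CPM in Lipo-TriTE tumours, 1.26, 1.58 and 0.800 CPM in Lipo-BiTE tumours and 0.891, 0.590 and 0.178 CPM in PBS tumours and passed no test, with log2 -0.08 ± 0.76, SE, adjusted p = 0.95 in Lipo-TriTE against PBS and log2 1.14 ± 0.74, SE, adjusted p = 0.31 in Lipo-BiTE against PBS. Il27, whose product joins Ebi3 to form IL-27, had 1.99, 2.03 and 2.33 CPM in Lipo-TriTE tumours, 7.34, 8.12 and 1.45 CPM in Lipo-BiTE tumours and 0.668, 0.767 and 0.416 CPM in PBS tumours. Lipo-BiTE 1 and 2 were the highest, and Lipo-BiTE 3 was below the Lipo-TriTE libraries. Il27 was 3.41-fold higher (log2 1.77 ± 0.61, SE, adjusted p = 0.044) in Lipo-TriTE against PBS and 9.04-fold higher (log2 3.18 ± 0.61, SE, adjusted p = 0.0049) in Lipo-BiTE against PBS. Lipo-TriTE against Lipo-BiTE did not pass for Il27, with a ratio of 0.377. It passed only without Lipo-BiTE 3 (adjusted p = 0.026). Il27 lost its call in Lipo-TriTE against PBS without PBS 1, PBS 2, PBS 3, Lipo-BiTE 1, Lipo-BiTE 2, Lipo-TriTE 1, Lipo-TriTE 2 or Lipo-TriTE 3 (adjusted p from 0.054 to 0.13). The gene overlaps Apobr on the opposite strand, which held 24999 counts over all libraries against 359 for Il27, and since strand use in counting is not stated its values are uncertain.

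Il6, the inflammatory cytokine of macrophages, fibroblasts and tumour cells, had 1.02, 2.79 and 1.88 CPM in Lipo-TriTE tumours, 2.76, 2.26 and 1.45 CPM in Lipo-BiTE tumours and 0.668, 0.177 and 0.178 CPM in PBS tumours. Treated libraries lay above PBS throughout, and the treated groups overlapped. Il6 was 5.60-fold higher (log2 2.49 ± 0.68, SE, adjusted p = 0.016) in Lipo-TriTE against PBS and 6.38-fold higher (log2 2.67 ± 0.68, SE, adjusted p = 0.021) in Lipo-BiTE against PBS. Il6 lost its call in Lipo-TriTE against PBS without PBS 2, PBS 3 or Lipo-TriTE 2 (adjusted p from 0.055 to 0.062). The fold of Il6 in Lipo-TriTE against PBS became 10.1 without PBS 1. Il6 lost its call in Lipo-BiTE against PBS without PBS 2, PBS 3, Lipo-BiTE 1 or Lipo-BiTE 2 (adjusted p from 0.058 to 0.083). The fold of Il6 in Lipo-BiTE against PBS became 11.6 without PBS 1. Il11, a relative of IL-6 made by stromal and tumour cells, had 7.33, 18.3 and 19.6 CPM in Lipo-TriTE tumours, 19.7, 34.4 and 28.2 CPM in Lipo-BiTE tumours and 20.6, 33.9 and 29.2 CPM in PBS tumours. All Lipo-TriTE libraries were below the others, yet no comparison passed the test for Il11, with log2 -0.89 ± 0.35, SE, adjusted p = 0.077 in Lipo-TriTE against PBS and log2 -0.87 ± 0.36, SE, adjusted p = 0.15 in Lipo-TriTE against Lipo-BiTE. Il11 in Lipo-TriTE against PBS passed with no filter (adjusted p = 0.00094). Il11 in Lipo-TriTE against Lipo-BiTE passed with no filter (adjusted p = 0.0036).

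**Figure D5:**
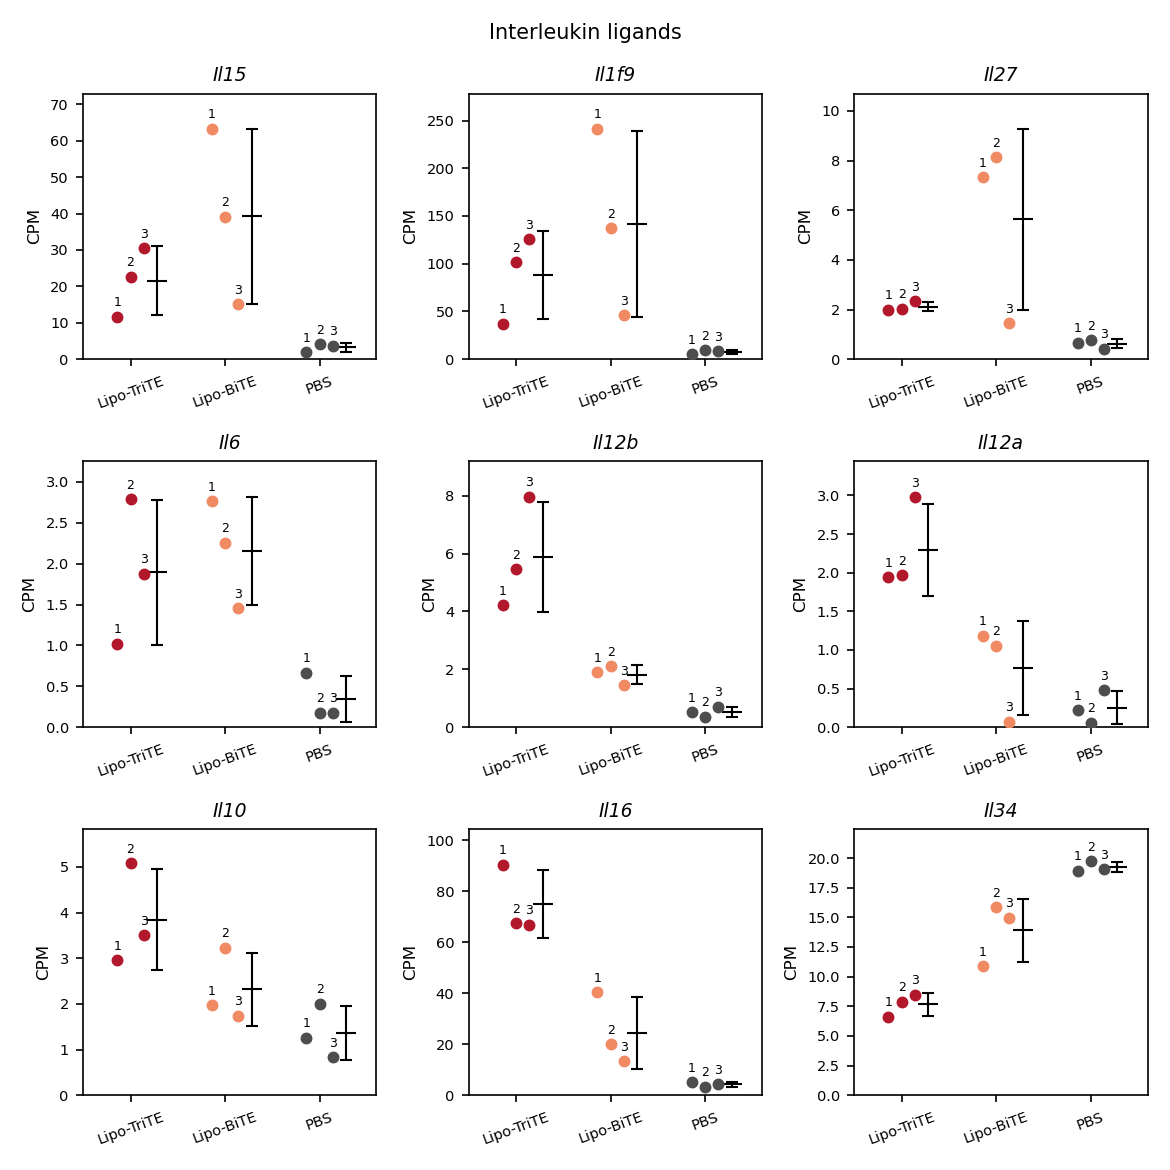
CPM of 9 interleukin ligands in each library (points, numbered by replicate) with the mean and SD beside them, for Lipo-TriTE, Lipo-BiTE and PBS. Il15, Il1f9 and Il27 have their highest values in Lipo-BiTE libraries, Il12b, Il12a and Il16 in Lipo-TriTE libraries, and Il34 is highest in PBS libraries.

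Receptors of the IL-6 and IL-12 families moved unevenly, with 3 of 6 higher and 1 lower in Lipo-TriTE against PBS, and 3 higher in Lipo-BiTE against PBS. Il27ra, the receptor chain for IL-27 on lymphocytes, had 121, 59.3 and 61.0 CPM in Lipo-TriTE tumours, 27.7, 16.9 and 15.4 CPM in Lipo-BiTE tumours and 5.05, 4.07 and 3.86 CPM in PBS tumours. Its groups did not overlap, and Lipo-TriTE 1 was the highest library. Il27ra was 18.7-fold higher (log2 4.22 ± 0.35, SE, adjusted p = 3.8e-05) in Lipo-TriTE against PBS, 4.63-fold higher (log2 2.21 ± 0.33, SE, adjusted p = 0.0014) in Lipo-BiTE against PBS and 4.03-fold higher (log2 2.01 ± 0.31, SE, adjusted p = 0.006) in Lipo-TriTE against Lipo-BiTE. It was the 1 gene of the 10 called in Lipo-TriTE against Lipo-BiTE whose call remained under every alternative tried and without each library. Il27ra overlaps Palm3 on the opposite strand, so its values are uncertain to that extent. Palm3 held 474 counts over all libraries, against 5367 for Il27ra. Il12rb2, the IL-12 receptor chain of activated T helper 1 cells, had 11.2, 7.36 and 9.52 CPM in Lipo-TriTE tumours, 7.34, 7.37 and 3.71 CPM in Lipo-BiTE tumours and 0.297, 0.944 and 1.19 CPM in PBS tumours. Every treated library lay above every PBS library. Il12rb2 was 11.3-fold higher (log2 3.49 ± 0.47, SE, adjusted p = 0.00038) in Lipo-TriTE against PBS and 7.37-fold higher (log2 2.88 ± 0.47, SE, adjusted p = 0.0019) in Lipo-BiTE against PBS, and the treated groups overlapped. Il12rb2 overlaps the abundant Serbp1 on the opposite strand, so its level is uncertain.

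Il12rb1, the chain that IL-12 and IL-23 share, had 38.3, 27.8 and 23.8 CPM in Lipo-TriTE tumours, 32.8, 32.0 and 31.4 CPM in Lipo-BiTE tumours and 18.6, 27.7 and 23.3 CPM in PBS tumours and passed no test, with log2 0.37 ± 0.21, SE, adjusted p = 0.2 in Lipo-TriTE against PBS and log2 0.46 ± 0.21, SE, adjusted p = 0.15 in Lipo-BiTE against PBS. Il6ra, the IL-6 binding chain of myeloid and T cells, had 141, 134 and 99.3 CPM in Lipo-TriTE tumours, 202, 130.5 and 99.8 CPM in Lipo-BiTE tumours and 64.4, 76.0 and 88.7 CPM in PBS tumours. Treated libraries lay above PBS by a small margin. Il6ra was 1.63-fold higher (log2 0.71 ± 0.25, SE, adjusted p = 0.047) in Lipo-TriTE against PBS and 1.89-fold higher (log2 0.92 ± 0.25, SE, adjusted p = 0.028) in Lipo-BiTE against PBS. Il6ra lost its call in Lipo-TriTE against PBS without PBS 1, PBS 2, PBS 3, Lipo-BiTE 2, Lipo-TriTE 1 or Lipo-TriTE 2 (adjusted p from 0.05 to 0.14). Il6ra lost its call in Lipo-BiTE against PBS without PBS 1, PBS 2, Lipo-BiTE 1 or Lipo-BiTE 2 (adjusted p from 0.056 to 0.11).

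Il6st, the signalling chain gp130 that nearly all cells carry, had 81.2, 85.7 and 64.7 CPM in Lipo-TriTE tumours, 58.3, 73.0 and 73.2 CPM in Lipo-BiTE tumours and 75.1, 92.9 and 102 CPM in PBS tumours and was not called, with log2 -0.22 ± 0.17, SE, adjusted p = 0.34 in Lipo-TriTE against PBS and log2 -0.40 ± 0.17, SE, adjusted p = 0.13 in Lipo-BiTE against PBS. Il11ra1, the IL-11 receptor of stromal cells, had 0.826, 0.698 and 0.648 CPM in Lipo-TriTE tumours, 4.58, 2.86 and 2.04 CPM in Lipo-BiTE tumours and 1.48, 2.66 and 3.80 CPM in PBS tumours. Lipo-TriTE libraries were all below the others, and Lipo-BiTE overlapped PBS. Il11ra1 was 3.63-fold lower (log2 -1.86 ± 0.49, SE, adjusted p = 0.014) in Lipo-TriTE against PBS and 4.30-fold lower (log2 -2.11 ± 0.50, SE, adjusted p = 0.025) in Lipo-TriTE against Lipo-BiTE. Il11ra1 lost its call in Lipo-TriTE against PBS without PBS 3 (adjusted p = 0.071). Il11ra1 lost its call in Lipo-TriTE against Lipo-BiTE without Lipo-BiTE 1, Lipo-BiTE 2, Lipo-TriTE 1, Lipo-TriTE 2 or Lipo-TriTE 3 (adjusted p from 0.053 to 0.079). Il11ra1 overlaps Galt and has a near copy in the mouse genome, so its counts are uncertain.

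In the IL-10 family, 2 of 3 tested receptor genes rose in each treated group against PBS, and Il10 itself rose in Lipo-TriTE against PBS. Il10ra, the IL-10 binding chain of leukocytes, had 173, 162 and 129.8 CPM in Lipo-TriTE tumours, 323, 178 and 83.4 CPM in Lipo-BiTE tumours and 11.5, 15.8 and 17.1 CPM in PBS tumours. Treated libraries were all far above PBS, and Lipo-BiTE held both the highest and the lowest treated value. Il10ra was 10.5-fold higher (log2 3.39 ± 0.42, SE, adjusted p = 0.0003) in Lipo-TriTE against PBS and 13.2-fold higher (log2 3.72 ± 0.43, SE, adjusted p = 0.00076) in Lipo-BiTE against PBS. Of 9 tested macrophage and monocyte markers, 8 rose and 1 fell in Lipo-TriTE against PBS, and 8 rose in Lipo-BiTE against PBS. Their median log2 fold change was 2.71 and 3.19 in these comparisons. As a percentage of the summed macrophage and monocyte markers Il10ra was 17.6% ± 3.93 in Lipo-TriTE tumours, 14.1% ± 4.86 in Lipo-BiTE tumours and 5.78% ± 1.43 in PBS tumours (SD, n = 3 each, no test). Against summed T cell markers Il10ra was 13.1% ± 3.08 in Lipo-TriTE, 58.4% ± 19.2 in Lipo-BiTE and 28.1% ± 3.50 in PBS tumours. Lipo-TriTE stood below PBS on that scale, so the order of the groups depended on the marker list. Il10rb, the second chain, which most cells carry, had 54.8, 51.5 and 52.7 CPM in Lipo-TriTE tumours, 77.1, 51.2 and 31.7 CPM in Lipo-BiTE tumours and 31.7, 24.2 and 23.2 CPM in PBS tumours. Lipo-BiTE 3 and PBS 1 were nearly equal, and the other treated libraries were higher. Il10rb was 2.01-fold higher (log2 1.01 ± 0.27, SE, adjusted p = 0.015) in Lipo-TriTE against PBS and 2.02-fold higher (log2 1.02 ± 0.27, SE, adjusted p = 0.026) in Lipo-BiTE against PBS. Il10rb lost its call in Lipo-TriTE against PBS without PBS 3 (adjusted p = 0.051). Il10rb lost its call in Lipo-BiTE against PBS without PBS 2, PBS 3, Lipo-BiTE 1 or Lipo-BiTE 2 (adjusted p from 0.063 to 0.11), and in a fit of the 2 groups alone (adjusted p = 0.063).

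Il10, the inhibitory cytokine of regulatory T cells and macrophages, had 2.96, 5.08 and 3.50 CPM in Lipo-TriTE tumours, 1.97, 3.23 and 1.75 CPM in Lipo-BiTE tumours and 1.26, 2.01 and 0.832 CPM in PBS tumours. Lipo-TriTE libraries lay above PBS, and Lipo-BiTE overlapped both. Il10 was 2.80-fold higher (log2 1.48 ± 0.45, SE, adjusted p = 0.027) in Lipo-TriTE against PBS, while Lipo-BiTE against PBS gave log2 0.76 ± 0.46, SE, adjusted p = 0.28. Il10 lost its call in Lipo-TriTE against PBS without PBS 1, PBS 3 or Lipo-TriTE 2 (adjusted p from 0.065 to 0.1). Il20rb, an epithelial receptor chain for IL-20 and IL-24, had 4.95, 5.08 and 3.76 CPM in Lipo-TriTE tumours, 4.50, 3.99 and 3.71 CPM in Lipo-BiTE tumours and 4.31, 5.84 and 5.53 CPM in PBS tumours and passed no test. Il22, which acts on epithelial cells, had 0, 1 and 2 counts in Lipo-TriTE libraries, 0, 1 and 1 in Lipo-BiTE libraries and 0, 0 and 3 in PBS libraries and was not tested. Il22ra2, a soluble protein that binds IL-22, had 1, 1 and 23 counts in Lipo-TriTE libraries, 4, 0 and 0 in Lipo-BiTE libraries and 0, 0 and 0 in PBS libraries. With the PBS group set to a floor of 3 counts, the ratio of Lipo-TriTE to PBS for Il22ra2 was 7.60, likewise no lower limit. Lipo-TriTE 3 held nearly all of the Lipo-TriTE counts.

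Besides Il17rb, which was counted with the type 2 receptors, all 4 IL-17 receptor genes tested were called in Lipo-TriTE against PBS, 2 higher and 2 lower, and 1, Il17ra, was called in Lipo-BiTE against PBS. Il17ra, the chain that IL-17A and IL-17F need on every target cell and that leukocytes also carry, had 211, 153 and 132 CPM in Lipo-TriTE tumours, 275, 154 and 98.6 CPM in Lipo-BiTE tumours and 43.0, 62.3 and 59.9 CPM in PBS tumours. Treated libraries lay above PBS, and Lipo-BiTE 1 was the highest. Il17ra was 3.00-fold higher (log2 1.58 ± 0.34, SE, adjusted p = 0.0054) in Lipo-TriTE against PBS and 3.19-fold higher (log2 1.67 ± 0.34, SE, adjusted p = 0.0075) in Lipo-BiTE against PBS. Il17rc, its partner on epithelial and stromal cells, had 20.6, 23.5 and 13.9 CPM in Lipo-TriTE tumours, 30.1, 36.2 and 36.6 CPM in Lipo-BiTE tumours and 37.0, 45.6 and 46.1 CPM in PBS tumours. Here the order was the opposite, with Lipo-TriTE below Lipo-BiTE and Lipo-BiTE below PBS, without overlap. Il17rc was 2.21-fold lower (log2 -1.15 ± 0.21, SE, adjusted p = 0.002) in Lipo-TriTE against PBS and 1.77-fold lower (log2 -0.82 ± 0.21, SE, adjusted p = 0.031) in Lipo-TriTE against Lipo-BiTE, and Lipo-BiTE against PBS did not pass (log2 -0.32 ± 0.20, SE, adjusted p = 0.29). Il17rc lost its call in Lipo-TriTE against Lipo-BiTE without PBS 2, PBS 3, Lipo-BiTE 2, Lipo-BiTE 3, Lipo-TriTE 1 or Lipo-TriTE 3 (adjusted p from 0.052 to 0.11), and with total counts (adjusted p = 0.067) and in a fit of the 2 groups alone (adjusted p = 0.069).

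Il17rd, a membrane protein also known for restraining fibroblast growth factor signalling, had 38.6, 46.1 and 39.6 CPM in Lipo-TriTE tumours, 58.5, 71.8 and 89.6 CPM in Lipo-BiTE tumours and 92.0, 97.0 and 105 CPM in PBS tumours. The groups again did not overlap, and PBS was the highest. Il17rd was 2.36-fold lower (log2 -1.24 ± 0.17, SE, adjusted p = 0.0004) in Lipo-TriTE against PBS and 1.77-fold lower (log2 -0.82 ± 0.17, SE, adjusted p = 0.014) in Lipo-TriTE against Lipo-BiTE, while Lipo-BiTE against PBS gave log2 -0.42 ± 0.17, SE, adjusted p = 0.11. Il17rd in Lipo-BiTE against PBS passed without Lipo-BiTE 3 (adjusted p = 0.023). Il17rd lost its call in Lipo-TriTE against Lipo-BiTE without Lipo-BiTE 2 (adjusted p = 0.055). Epithelial and fibroblast markers, whose sums are given above, were also lower in their sums in Lipo-TriTE than in PBS libraries, and their part in Il17rc and Il17rd was not tested. In Lipo-TriTE against PBS, 0 fibroblast markers were called higher and 4 lower of 8 tested, and 2 epithelial markers were called higher and 2 lower of 6. Il17re, the IL-17C receptor of epithelial cells, had 1.51, 2.03 and 2.46 CPM in Lipo-TriTE tumours, 1.03, 0.0752 and 0.364 CPM in Lipo-BiTE tumours and 0.297, 0.0590 and 0.238 CPM in PBS tumours. Lipo-TriTE stood above the others, and Lipo-BiTE overlapped PBS. Il17re was 9.91-fold higher (log2 3.31 ± 0.88, SE, adjusted p = 0.014) in Lipo-TriTE against PBS. Il17re lost its call in Lipo-TriTE against PBS without PBS 2 (adjusted p = 0.056). Among the IL-17 ligands left after Il17a was set aside, none was testable. Il17f had 12, 7 and 1 counts in Lipo-TriTE libraries, 1, 0 and 1 in Lipo-BiTE libraries and 10, 1 and 0 in PBS libraries, and the ratio of Lipo-TriTE to Lipo-BiTE was 7.67 (exact 95% interval 1.86 to 67.7). Of the PBS counts of Il17f nearly all lay in PBS 1.

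Of the IL-1 and IL-18 family genes other than Il1rl1, which was counted with the type 2 receptors, 3 of 6 tested rose against PBS in each treated group and 0 were called in Lipo-TriTE against Lipo-BiTE, where edgeR gave 1 an unadjusted p under 0.05 and DESeq2 called 1, Il18r1. Il1f9, the ligand IL-36 gamma made by epithelial cells, neutrophils and macrophages, had 37.1, 101 and 126 CPM in Lipo-TriTE tumours, 241, 137 and 46.0 CPM in Lipo-BiTE tumours and 5.42, 9.09 and 8.08 CPM in PBS tumours. Treated libraries lay far above PBS, and Lipo-BiTE 1, the library with the most neutrophil markers, was the highest. Il1f9 was 11.6-fold higher (log2 3.54 ± 0.61, SE, adjusted p = 0.0019) in Lipo-TriTE against PBS and 18.7-fold higher (log2 4.22 ± 0.63, SE, adjusted p = 0.0014) in Lipo-BiTE against PBS. The fold of Il1f9 in Lipo-BiTE against PBS became 12.1 without Lipo-BiTE 1. Il1rl2, the IL-36 receptor, had 8.01, 7.68 and 5.90 CPM in Lipo-TriTE tumours, 8.37, 4.74 and 3.20 CPM in Lipo-BiTE tumours and 1.19, 0.767 and 1.19 CPM in PBS tumours. Treated libraries all lay above PBS. Il1rl2 was 6.85-fold higher (log2 2.78 ± 0.42, SE, adjusted p = 0.00071) in Lipo-TriTE against PBS and 5.17-fold higher (log2 2.37 ± 0.42, SE, adjusted p = 0.0029) in Lipo-BiTE against PBS, so that ligand and receptor genes of IL-36 gamma both rose in both treated groups.

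Il18r1, the IL-18 binding chain of T and natural killer cells, had 78.0, 51.2 and 60.2 CPM in Lipo-TriTE tumours, 49.7, 32.5 and 22.5 CPM in Lipo-BiTE tumours and 6.38, 6.08 and 6.18 CPM in PBS tumours. The 3 groups did not overlap. Il18r1 was 10.2-fold higher (log2 3.34 ± 0.29, SE, adjusted p = 3.8e-05) in Lipo-TriTE against PBS and 5.61-fold higher (log2 2.49 ± 0.28, SE, adjusted p = 0.00076) in Lipo-BiTE against PBS, while the treated groups differed by log2 0.86 ± 0.26, SE, adjusted p = 0.061. This difference passed with total counts (adjusted p = 0.023), with no filter (0.0007), with a filter of 1 CPM in 3 libraries (0.049), with DESeq2 (0.019) and without Lipo-BiTE 1 (0.012). Natural killer cell markers, 4 of 6 in the table, summed to 60.6 to 80.9 CPM in Lipo-TriTE libraries, 32.3 to 54.7 CPM in Lipo-BiTE libraries and 13.4 to 14.6 CPM in PBS libraries. Il18rap, its signalling partner and the next gene on chromosome 1 in the deposited annotation, had 155, 201 and 189 CPM in Lipo-TriTE tumours, 258, 177 and 133 CPM in Lipo-BiTE tumours and 157, 148 and 158 CPM in PBS tumours and overlapped between all groups. No comparison passed for Il18rap, with log2 0.24 ± 0.21, SE, adjusted p = 0.42 in Lipo-TriTE against PBS and log2 0.30 ± 0.21, SE, adjusted p = 0.36 in Lipo-BiTE against PBS. In PBS tumours Il18rap had 22.8 RPKM and Il18r1 1.30 RPKM, while in Lipo-TriTE tumours the values were 26.9 and 13.2 RPKM. Il1rap, the accessory chain for IL-1, IL-33 and IL-36 receptors, had 53.7, 117 and 102 CPM in Lipo-TriTE tumours, 169, 111 and 72.4 CPM in Lipo-BiTE tumours and 61.3, 65.7 and 72.9 CPM in PBS tumours and was not called. Il1rap in Lipo-BiTE against PBS passed with no filter (adjusted p = 0.00033), without Lipo-BiTE 3 (0.023) and without Lipo-TriTE 1 (0.049). Il18bp, a soluble protein that neutralises IL-18, had 11.3, 8.44 and 8.36 CPM in Lipo-TriTE tumours, 15.9, 16.0 and 7.05 CPM in Lipo-BiTE tumours and 6.46, 7.91 and 6.95 CPM in PBS tumours. Its adjusted p was 0.36 in Lipo-TriTE against PBS and 0.082 in Lipo-BiTE against PBS. Il18bp in Lipo-BiTE against PBS passed with no filter (adjusted p = 0.048), with DESeq2 (0.043) and without Lipo-BiTE 3 (0.0074).

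The remaining cytokines moved in opposite directions. Il16, a CD4 ligand stored as a precursor in lymphocytes, had 90.4, 67.6 and 66.9 CPM in Lipo-TriTE tumours, 40.3, 19.9 and 13.2 CPM in Lipo-BiTE tumours and 5.20, 3.25 and 4.28 CPM in PBS tumours. The groups did not overlap. Il16 was 17.7-fold higher (log2 4.15 ± 0.40, SE, adjusted p = 8.1e-05) in Lipo-TriTE against PBS, 5.79-fold higher (log2 2.53 ± 0.38, SE, adjusted p = 0.0015) in Lipo-BiTE against PBS and 3.06-fold higher (log2 1.62 ± 0.35, SE, adjusted p = 0.02) in Lipo-TriTE against Lipo-BiTE. Il16 lost its call in Lipo-TriTE against Lipo-BiTE without Lipo-BiTE 2 or Lipo-TriTE 3 (adjusted p from 0.051 to 0.094). Il16 overlaps Stard5 on the opposite strand, and its values are uncertain to that extent. Relative to the summed T cell markers it was 6.22% ± 0.668 in Lipo-TriTE tumours, 7.47% ± 1.86 in Lipo-BiTE tumours and 8.31% ± 2.83 in PBS tumours (SD, n = 3 each, no test). Il34, a ligand of the macrophage receptor Csf1r made by epithelial and stromal cells, had 6.60, 7.87 and 8.49 CPM in Lipo-TriTE tumours, 10.9, 15.9 and 15.0 CPM in Lipo-BiTE tumours and 18.9, 19.7 and 19.1 CPM in PBS tumours. PBS was highest and Lipo-TriTE lowest, with no overlap. Il34 was 2.52-fold lower (log2 -1.33 ± 0.21, SE, adjusted p = 0.0009) in Lipo-TriTE against PBS and 1.82-fold lower (log2 -0.86 ± 0.21, SE, adjusted p = 0.026) in Lipo-TriTE against Lipo-BiTE, and Lipo-BiTE against PBS did not pass (log2 -0.47 ± 0.20, SE, adjusted p = 0.14). Il34 lost its call in Lipo-TriTE against Lipo-BiTE without PBS 2, PBS 3, Lipo-BiTE 2, Lipo-BiTE 3, Lipo-TriTE 1, Lipo-TriTE 2 or Lipo-TriTE 3 (adjusted p from 0.053 to 0.11), and with total counts (adjusted p = 0.065) and in a fit of the 2 groups alone (adjusted p = 0.083). Il34 overlaps Mtss1l on the opposite strand, so its values are uncertain.

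Set against Lipo-BiTE, Lipo-TriTE thus had higher Il1rl1, Il2rg, Il9r, Il12b, Il27ra and Il16 and lower Il11ra1, Il17rc, Il17rd and Il34. Without Lipo-BiTE 2 there were 1 higher and 0 lower calls, and without Lipo-TriTE 3 there were 3 higher and 1 lower. Lower calls numbered 2 without PBS 2, PBS 3, Lipo-TriTE 1 or Lipo-TriTE 2. Of the 42 genes, 7 stood highest in Lipo-TriTE, then Lipo-BiTE, then PBS, without overlap (Il21r, Il2rg, Il9r, Il18r1, Il12b, Il27ra and Il16), and 3 stood in the opposite order (Il17rc, Il17rd and Il34). The share of all tested genes in either order was not counted, so these 2 counts only describe the named genes. Between the treated groups 12 of the 42 genes lay above in all Lipo-TriTE libraries and 5 below, against 16.1% and 14.4% of all tested genes, or 30.5% in either direction. Both comparisons with PBS use the same PBS libraries. Il17rb, Il1rl1, Il5ra, Il9r, Il10, Il17re and Il12a were called higher in Lipo-TriTE against PBS and not called in Lipo-BiTE against PBS. Of these, Il1rl1 and Il9r passed the direct test of Lipo-TriTE against Lipo-BiTE, and for the others the difference between the agents did not pass. Il9r passed in Lipo-BiTE against PBS, and Il17rb and Il5ra in Lipo-TriTE against Lipo-BiTE, under the alternatives given with them.

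Partners of these cytokines that carry other names were counted from a list. Of 17 tested partners, 10 rose and 5 fell in Lipo-TriTE against PBS, 9 rose in Lipo-BiTE against PBS, and 1 fell in Lipo-TriTE against Lipo-BiTE. Of all tested genes, 18.9% were called higher and 14.8% lower in Lipo-TriTE against PBS. In Lipo-BiTE against PBS 13.8% were called higher, and in Lipo-TriTE against Lipo-BiTE 5.21% were called lower. Csf1r, the receptor for Il34 and for colony stimulating factor 1, had 186, 222 and 170.3 CPM in Lipo-TriTE tumours, 637, 301 and 199 CPM in Lipo-BiTE tumours and 28.9, 30.9 and 27.7 CPM in PBS tumours. Csf1r was 6.61-fold higher (log2 2.73 ± 0.36, SE, adjusted p = 0.00043) in Lipo-TriTE against PBS and higher by log2 3.70 ± 0.38, SE, adjusted p = 0.00076 in Lipo-BiTE against PBS. Ebi3, the partner chain of Il27, had 8.01, 10.3 and 12.1 CPM in Lipo-TriTE tumours, 17.1, 8.50 and 5.31 CPM in Lipo-BiTE tumours and 1.71, 1.00 and 1.13 CPM in PBS tumours. Ebi3 was 7.92-fold higher (log2 2.99 ± 0.45, SE, adjusted p = 0.00072) in Lipo-TriTE against PBS and 8.07-fold higher (log2 3.01 ± 0.45, SE, adjusted p = 0.0012) in Lipo-BiTE against PBS. Osm, the neutrophil and macrophage cytokine oncostatin M, was 10.8-fold higher (log2 3.43 ± 0.54, SE, adjusted p = 0.0011) in Lipo-TriTE against PBS and 15.8-fold higher (log2 3.98 ± 0.55, SE, adjusted p = 0.0011) in Lipo-BiTE against PBS. Csf2ra, the alpha chain for granulocyte-macrophage colony stimulating factor, was 10.2-fold higher (log2 3.35 ± 0.55, SE, adjusted p = 0.0014) in Lipo-TriTE against PBS and 21.9-fold higher (log2 4.45 ± 0.57, SE, adjusted p = 0.00087) in Lipo-BiTE against PBS. Ifngr1, an interferon gamma receptor chain, was 4.87-fold higher (log2 2.28 ± 0.31, SE, adjusted p = 0.00046) in Lipo-TriTE against PBS and 3.90-fold higher (log2 1.96 ± 0.30, SE, adjusted p = 0.0017) in Lipo-BiTE against PBS. Of the 5 that fell in Lipo-TriTE against PBS, Osmr, the oncostatin M receptor chain of stromal and epithelial cells, fell to a mean of 8.19 CPM, against 20.6 CPM in PBS tumours. Osmr was singled out after its values were seen. Csf2rb, the beta common chain, is not analysed here.

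Among 16 JAK kinases, STAT factors and feedback inhibitors, 11 rose in each treated group against PBS, and 1 rose in Lipo-TriTE against Lipo-BiTE. The share of all tested genes called higher was 18.9% in Lipo-TriTE against PBS and 13.8% in Lipo-BiTE against PBS. It was 4.88% in Lipo-TriTE against Lipo-BiTE. Stat4, which IL-12 activates in T cells, had 26.6, 22.8 and 27.6 CPM in Lipo-TriTE tumours, 14.3, 7.60 and 7.13 CPM in Lipo-BiTE tumours and 0.371, 1.30 and 1.96 CPM in PBS tumours. Its 3 groups did not overlap, and it was 20.6-fold higher (log2 4.37 ± 0.46, SE, adjusted p = 0.0001) in Lipo-TriTE against PBS, 7.76-fold higher (log2 2.96 ± 0.45, SE, adjusted p = 0.0014) in Lipo-BiTE against PBS and 2.66-fold higher (log2 1.41 ± 0.39, SE, adjusted p = 0.046) in Lipo-TriTE against Lipo-BiTE. Values of single genes in this list and in the list of partners were not recomputed under the alternatives or without each library. Socs3, a feedback inhibitor of IL-6 signalling, had 341, 392 and 321 CPM in Lipo-TriTE tumours, 1051, 594 and 329 CPM in Lipo-BiTE tumours and 73.1, 98.5 and 98.5 CPM in PBS tumours. Socs3 was 3.90-fold higher (log2 1.96 ± 0.34, SE, adjusted p = 0.002) in Lipo-TriTE against PBS and 7.31-fold higher (log2 2.87 ± 0.36, SE, adjusted p = 0.00079) in Lipo-BiTE against PBS. Cish, a feedback inhibitor of gamma chain signalling, was 3.65-fold higher (log2 1.87 ± 0.35, SE, adjusted p = 0.0028) in Lipo-TriTE against PBS and 4.63-fold higher (log2 2.21 ± 0.35, SE, adjusted p = 0.002) in Lipo-BiTE against PBS. Ptpn6, a phosphatase of leukocytes, was 9.13-fold higher (log2 3.19 ± 0.38, SE, adjusted p = 0.00022) in Lipo-TriTE against PBS and 8.32-fold higher (log2 3.06 ± 0.37, SE, adjusted p = 0.00077) in Lipo-BiTE against PBS. Jak3, the kinase that the gamma chain binds, had 235, 138 and 96.3 CPM in Lipo-TriTE tumours, 231, 191 and 185 CPM in Lipo-BiTE tumours and 70.9, 156 and 165 CPM in PBS tumours. It passed no test, with log2 0.26 ± 0.35, SE, adjusted p = 0.61 in Lipo-TriTE against PBS, and is named after its values were seen.

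The 27 untested genes remain outside these counts. Of these, 13 had fewer than 10 counts over all 9 libraries, and Il1rapl1 had none. The filter keeps a gene that is high in 1 group, so the 42 tested genes are not a sample of all 69.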

How the data were processed

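RNA from mouse tumours was sequenced in 9 libraries, 3 for each of 3 groups. Per the labels' protocols, frozen tissue was homogenised in Trizol and random-primed libraries were made from fragmented mRNA. The authors deposited raw read counts per gene in one table, with gene lengths in bases, per the file headers. For the aligner, the counting tool, strand use and the genome build, nothing is given in these sources, and gene identifiers name C57BL/6NJ gene models. The columns called untreated were taken as the PBS libraries, because no other group remained and their numbers match. Libraries of a group differed beyond sampling noise in every pair, with a chi-square per degree of freedom of 4.80 for PBS 2 and 3 and from 26.3 to 90.6 for the other pairs within groups.

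The analysis used edgeR 4.0.16 in R 4.3.3 with filterByExpr, TMM scaling and the robust quasi-likelihood F test over all 9 libraries with 1 mean per group. Adjusted p-values are Benjamini-Hochberg values across the 16596 tested genes. CPM use TMM-scaled totals and RPKM use the deposited length. Each SE is the log2 fold change divided by the root of F. A group without counts was bounded at 3 counts over the group, and a group with 1 to 3 counts was given a ratio with an exact 95% interval. For the bound, the other group's count was taken as it stood. Values are given for every gene with a mean of at least 1 CPM in a group, for a panel of T helper and inflammatory cytokines, and for up to 5 genes of each list with the smallest p in Lipo-TriTE against PBS, less items that are not reported here. Members and lists were chosen with earlier results of these data known. Depth was 13152783 to 20273548 counts per library, at which 3 counts equal 0.146 to 0.237 CPM. The procedure was tested on simulated counts. Alternatives were DESeq2 1.42.0 size factors and its Wald test, total counts, other filters, fits of 2 groups, a replicate block, no robust estimation and the omission of each library.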

Additional observations from a re-analysis of the deposited data

How the results depend on the processing

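The 42 tested genes in 3 comparisons gave 2134 recomputed values, of which 1955 kept their direction and side of the threshold, 89 lost the call, 48 gained one and 42 changed sign, the last all in genes that were not called. The calls that remained under every alternative and without each library were 18 of 29 in Lipo-TriTE against PBS, 14 of 18 in Lipo-BiTE against PBS and 1 of 10 in Lipo-TriTE against Lipo-BiTE. Replicate numbers did not pair the libraries, since same-numbered libraries had correlations of their deviations from -0.19 to 0.076. With a replicate block, 282 genes were lower in Lipo-BiTE against PBS, against 534 without it. The block ended the calls of Il6ra in Lipo-TriTE against PBS (adjusted p = 0.076) and in Lipo-BiTE against PBS (0.058), and those of Il12b (0.052) and Il11ra1 (0.053) in Lipo-TriTE against Lipo-BiTE. With it Il11 (0.01) and Il31ra (0.048) passed in Lipo-TriTE against PBS, Il9r (0.029) in Lipo-BiTE against PBS, and Il21r (0.033), Il18r1 (0.042) and Il11 (0.035) in Lipo-TriTE against Lipo-BiTE. Calls gained with no filter came at nearly unchanged folds, such as log2 1.24 against 1.22 for Il21r in Lipo-TriTE against Lipo-BiTE. Il11 had -0.90 against -0.89 in Lipo-TriTE against PBS, and Il1rap 0.80 against 0.82 in Lipo-BiTE against PBS. The cause was not tested for any of these changes.

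Over all genes, the count of lower genes in Lipo-BiTE against PBS was 988 with total counts, 839 with no filter and 995 with DESeq2, and 80 to 971 without each library, moved by over 1.5 times without any PBS or Lipo-BiTE library and without Lipo-TriTE 2. Higher genes there numbered 1455 to 2656 without each library, against 2283, with 1455 without Lipo-BiTE 1. In Lipo-TriTE against PBS, 1391 to 2644 genes were lower without each library, against 2449, with 1391 without PBS 2 and 1440 without PBS 3. In Lipo-TriTE against Lipo-BiTE, lower genes numbered 451 with total counts, 1455 with no filter, 510 with the 2 groups alone and 158 to 1120 without each library, against 865, moved by over 1.5 times without PBS 2, PBS 3, Lipo-BiTE 2, Lipo-BiTE 3 or any Lipo-TriTE library. Higher genes there were 1538 with no filter, 1475 with DESeq2 and 276 to 1077 without each library, against 810, moved by as much without Lipo-BiTE 2, Lipo-BiTE 3 or Lipo-TriTE 3. Total counts moved the median log2 fold change of all genes by -0.13 in Lipo-BiTE against PBS and by 0.13 in Lipo-TriTE against Lipo-BiTE. The share of higher calls among all called genes was then 67.8% against 81% in Lipo-BiTE against PBS, and 70.9% against 48.4% in Lipo-TriTE against Lipo-BiTE.

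Among the interleukin genes, lower calls in Lipo-BiTE against PBS were 0 to 1 without each library, the 1 without Lipo-BiTE 3. In Lipo-TriTE against Lipo-BiTE, higher calls were 10 with no filter and with DESeq2 and 1 to 8 without each library, against 6. Lower calls there were 2 with total counts and with the 2 groups alone and 0 to 4 without each library, against 4. Signs changed in uncalled genes as follows. With total counts the log2 fold change was -0.069 for Il5ra and -0.043 for Il15ra in Lipo-BiTE against PBS, and 0.087 for Il18rap, 0.14 for Il10rb, 0.067 for Il17ra and 0.027 for Il12rb1 in Lipo-TriTE against Lipo-BiTE. Il10rb in that comparison was also 0.032 with DESeq2 size factors and with the DESeq2 test, 0.0099 with no filter, 0.044 with a filter of 1 CPM in 3 libraries, 0.038 with the 2 groups alone and 0.068 with the replicate block. Without each library, log2 fold changes in Lipo-TriTE against PBS spanned -0.66 to 0.40 for Il23a, -0.83 to 0.20 for Il3ra and -0.42 to 0.036 for Il13ra1. In Lipo-BiTE against PBS they spanned -0.12 to 0.58 for Il11ra1, -0.53 to 1.00 for Il5ra, -0.22 to 0.17 for Il11 and -0.036 to 0.16 for Il15ra. In Lipo-TriTE against Lipo-BiTE they spanned -0.24 to 0.33 for Il10rb, -1.08 to 0.25 for Il31ra, -0.46 to 0.20 for Il4ra, -0.23 to 0.20 for Il18rap, -0.66 to 0.22 for Il10ra, -0.34 to 0.36 for Il17ra, -0.38 to 0.089 for Il6ra, -0.54 to 0.14 for Il6 and -0.29 to 0.035 for Il12rb1.

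Genes near 1 CPM rest on few counts, and a change in them below the spread of 3 libraries was not detectable at this depth.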
